A study of Citrus maxima with 12 samples.

Results

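Some genes of pomelo fruit were expressed in one set of cultivars and listed at or near 0 in another. Members were the gene IDs starting with Cg that split the Taoxi cultivar from both other cultivars, Jinlan and Jinsha, in fruit RNA. The first set, called Taoxi-only here, held 39 IDs that did not exceed 0.1 FPKM in any of the 6 Jinlan and Jinsha libraries and reached 1 FPKM in each of 5 Taoxi libraries. FPKM counts sequenced fragments relative to gene length and to the size of the library. The second set, called Jinlan/Jinsha-only, held 34 IDs with the reverse pattern. Together they made 73 of the 30123 Cg IDs in the deposited table, or 0.129% for the Taoxi-only rule and 0.113% for the Jinlan/Jinsha-only rule. The values that chose the members are therefore a description of the choice, and the difference between Taoxi and the other cultivars was not tested.

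Plant cultivars of the same species can differ in gene content, so that a gene annotated in a reference genome is missing from the DNA of some cultivars. A gene can also be present and not transcribed in the tissue sampled, or carry so many sequence differences that its reads no longer align to the reference copy. A table of expression values shows the same reading near 0 in each of these cases, and they cannot be told apart here. Genes of this kind often lie side by side on a chromosome in plants. The table gives IDs without gene names, descriptions or coordinates, so no function is given for any ID and the labelled tissue could not be checked against marker genes.

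All libraries were labelled as fruit of Citrus maxima, in a study of black spot disease of Jinggang honey pomelo. The groups were diseased Jinlan, diseased Jinsha, diseased Taoxi and control Taoxi, with 3 libraries each. The labels number the libraries of a group as biosamples and do not say whether each came from its own fruit or tree. The p-values measure the spread between these libraries, which may be technical in part. In fruit tissue taken whole, fewer cells that express a gene and less RNA per cell cannot be told apart. Only diseased fruit of Jinlan and Jinsha was analysed here, so cultivar and response to disease cannot be told apart in these 2 cultivars. In the 12 libraries the FPKM summed to between 560349 and 577783, and between 21345 and 22431 IDs were above 0. The library labelled Taoxi control 1 stood apart: across 17421 genes its log2(FPKM + 1) correlated at 0.975 on average with diseased Jinlan, at 0.960 with diseased Jinsha, at 0.912 with diseased Taoxi and at 0.891 with Taoxi controls 2 and 3. It took no part in the choice of members, and its values are given separately.

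**Figure D1:**
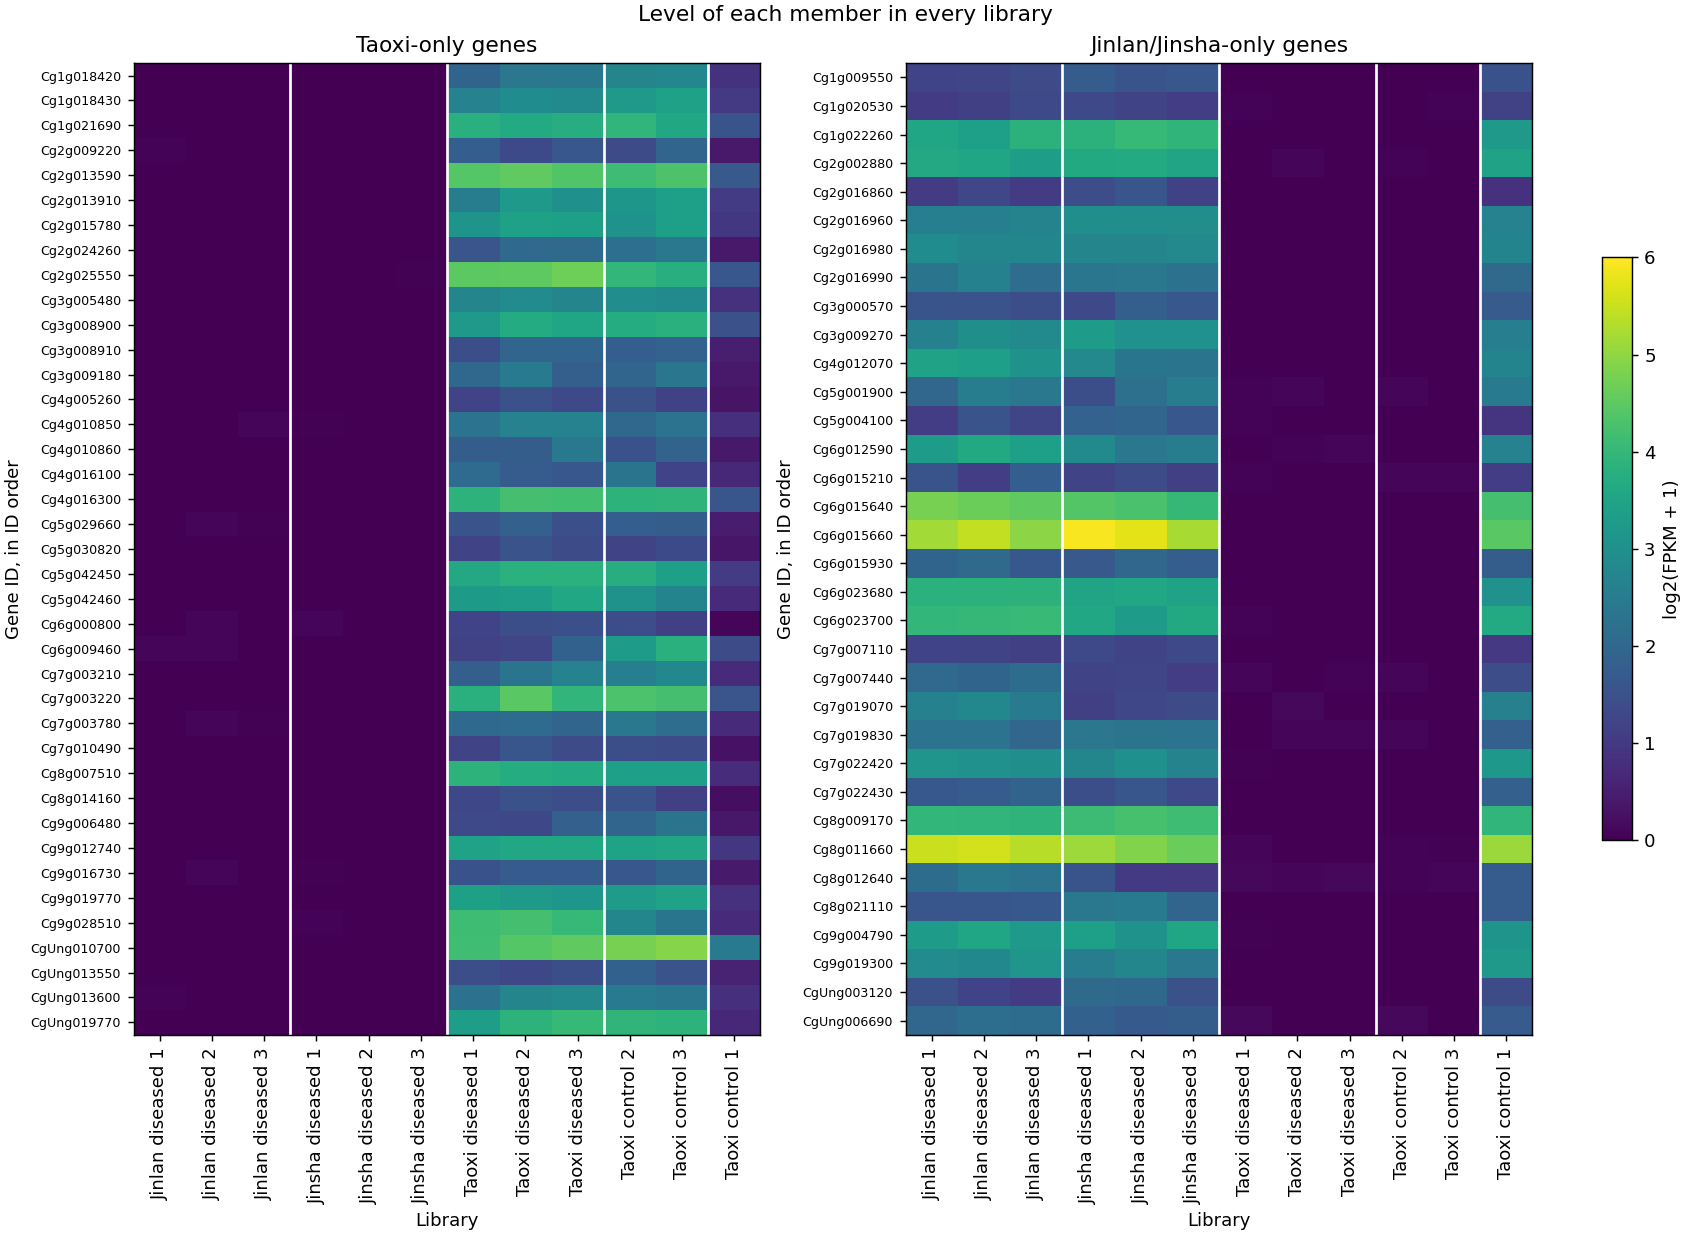
Level of each member, as log2(FPKM + 1), in the 12 libraries, with IDs in ID order down each panel and libraries grouped by cultivar and state from left to right. The 39 Taoxi-only genes (left) are near 0 in all 6 Jinlan and Jinsha columns, the 34 Jinlan/Jinsha-only genes (right) are near 0 in 5 Taoxi columns, and the last column, the library labelled Taoxi control 1, shows values above 0 in both panels.

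The Taoxi-only genes were moderately expressed. Their mean over the 5 Taoxi libraries ran from 1.53 to 22.9 FPKM with a median of 4.84 FPKM, against a median of 14.5 FPKM for the 14106 Cg IDs at 1 FPKM or more in the same 5 libraries. Means were below 3 FPKM for 13 members and at 10 FPKM or more for 12. The highest was CgUng010700, with 16.8, 20.5 and 22.0 FPKM in diseased Taoxi and 26.2 and 29.0 FPKM in Taoxi controls 2 and 3, and it was listed at 0 in every Jinlan and Jinsha library. Its diseased libraries all lay below both controls.

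Cg2g013590, the next in level, was at 20.2, 22.2 and 19.6 FPKM in diseased Taoxi while Taoxi controls 2 and 3 held 16.5 and 19.2 FPKM. Cg7g003220 had 13.1, 21.0 and 14.4 FPKM in diseased Taoxi and 18.7 and 17.7 FPKM in those controls. Cg4g016300 had 13.8, 17.9 and 17.2 FPKM in diseased Taoxi and 13.7 and 13.9 FPKM in the controls. These 3 IDs were listed at 0 in all 6 Jinlan and Jinsha libraries. In Cg7g003220 and Cg4g016300 the diseased and control ranges overlapped, while Cg2g013590 was higher in every diseased library. That difference was small and did not pass in the fit described below (limma adjusted p = 0.131). Cg2g025550, the remaining ID among the 5 highest, differed with disease and is described below.

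On the low side, 28 of the 39 Taoxi-only genes were listed at 0 in all 6 Jinlan and Jinsha libraries. The other 11 had at least 1 value above 0, and the highest such value was 0.0785 FPKM, for Cg6g009460 in diseased Jinlan 1. Of the 234 low-side values 19 were above 0, 13 of 117 in Jinlan and 6 of 117 in Jinsha. Summed over the 39 members, the libraries held 0.172, 0.316 and 0.102 FPKM in diseased Jinlan and 0.142, 0 and 0.0441 FPKM in diseased Jinsha. The same sum was 254, 302 and 295 FPKM in diseased Taoxi and 281 and 287 FPKM in Taoxi controls 2 and 3. The diseased range of this sum contained both controls.

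Whether these genes also differed between diseased and control Taoxi fruit was tested in a fit of all genes. The choice of members did not compare these 2 groups, but it required 1 FPKM or more in all 5 of their libraries. Genes near 0 in either state could therefore not be members, while a gene tested needed 1 FPKM in only 3 of the libraries fitted. The shares of members and of all genes are thus not on like terms. The fit was made with limma on log2(FPKM + 1) over 11 libraries, without Taoxi control 1, and a gene passed at a Benjamini-Hochberg adjusted p below 0.05 over the 17362 genes tested. All 39 members entered the fit. In diseased fruit 4 of the 39 were higher and 5 lower (23.1% passing), where limma called 18.9% of all genes tested higher and 11.1% lower (30.0% in all). The median log2 fold change was -0.06 over the members and 0.04 over all genes tested. Libraries at 0 add almost no spread to this fit, so its standard errors may be too small for these genes. A limma fit of the 2 Taoxi groups alone called 3 higher and 3 lower (15.4%), against 11.8% and 6.94% of the 15890 genes it tested (18.8% in all). In both fits the share of members that passed lay below the share of all genes. This order was not the same under all settings: quantile normalization gave 4 higher and 8 lower (30.8% of members against 29.5% of all genes), and leaving out diseased Taoxi 2 gave 4 higher and 9 lower (33.3% against 27.3%). Leaving out Taoxi control 3 gave 2 of each (10.3% against 17.2%).

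Cg9g028510 showed the largest rise. It was at 16.7, 17.7 and 15.3 FPKM in diseased Taoxi (16.5 ± 1.19, SD, n = 3) and Taoxi controls 2 and 3 held 5.75 and 4.01 FPKM, and the groups did not overlap. This gave 1.59 ± 0.13 log2 units (SE; adjusted p 2.08e-05 by limma, and 0.00289 with the 2 groups alone). When Taoxi control 1 was put back in its labelled group, the change was 2.19 log2 units (limma adjusted p = 0.00977), and this was the only member to pass (2.56% of members, against 7.89% of all genes). That library held Taoxi-only genes below controls 2 and 3, so adding it raises their changes. With it 37 of the 39 members had a change above 0 (median 0.48 log2 units), against 17 without it (median -0.06). The larger value is thus not a stronger rise with disease. Cg2g025550 followed, at 21.3, 21.8 and 24.8 FPKM in diseased Taoxi against 14.6 and 12.9 FPKM in the controls. The rise was 0.68 ± 0.10 log2 units (SE; adjusted p 0.000522 by limma, and 0.00872 with the 2 groups alone), and with all 12 libraries it was 1.43 log2 units and did not pass (limma adjusted p = 0.0958).

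Cg6g009460 had the largest fall, to 1.29, 1.39 and 2.65 FPKM in diseased Taoxi (1.77 ± 0.761, SD, n = 3), against 8.75 and 12.9 FPKM in Taoxi controls 2 and 3. The change was -2.10 ± 0.20 log2 units (SE; adjusted p 5.72e-05 by limma, and 0.00483 with the 2 groups alone). With all 12 libraries it was -1.39 and did not pass (limma adjusted p = 0.109). The next, Cg9g006480, had 1.52, 1.48 and 2.57 FPKM in diseased Taoxi and 2.87 and 3.95 FPKM in the controls, a change of -0.64 ± 0.16 log2 units (SE; adjusted p 0.0136 by limma). That call was lost in the fit of 2 groups (limma adjusted p = 0.0763), with all 12 libraries (0.947, at -0.06 log2 units), without Taoxi control 3 (0.140) and with a pseudocount of 0.1 (0.0537). The 5 remaining passing members changed by 0.37 to 0.52 log2 units, Cg8g007510 and Cg5g042460 upward and Cg1g018420, Cg1g018430 and CgUng010700 downward. Cg5g042460 and Cg1g018420 no longer passed in the fit of 2 groups (limma adjusted p = 0.0737 and 0.0774).

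**Figure D2:**
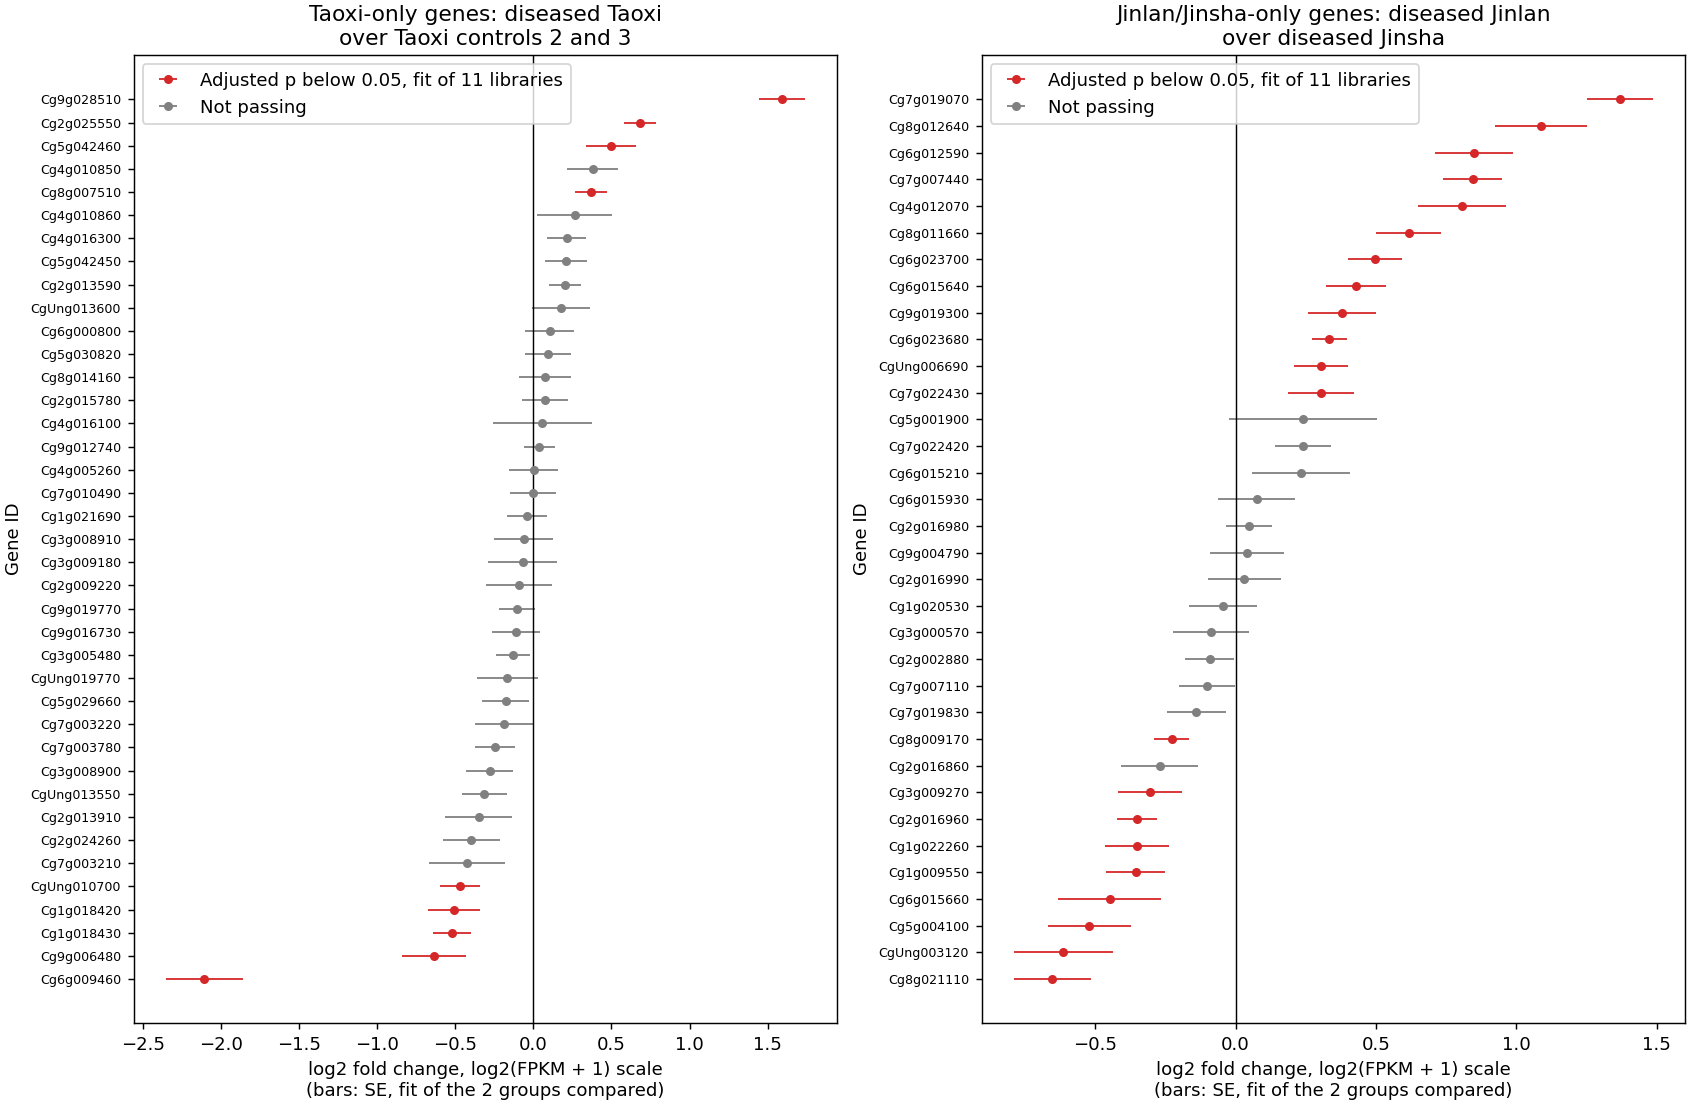
Log2 fold change on the log2(FPKM + 1) scale, diseased over control Taoxi for the Taoxi-only genes (left) and diseased Jinlan over diseased Jinsha for the Jinlan/Jinsha-only genes (right), with standard errors from the fit of the 2 groups compared and red for an adjusted p below 0.05 in the limma fit of 11 libraries. Cg9g028510 (1.59) and Cg6g009460 (-2.10) stand at the ends on the left, and 21 of 34 genes are red on the right.

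Compared with the Taoxi-only genes, the Jinlan/Jinsha-only genes had a slightly lower median level and a higher top level. Their mean over the 6 Jinlan and Jinsha libraries ran from 1.30 to 42.9 FPKM with a median of 3.96 FPKM, against a median of 14.9 FPKM for the 14587 Cg IDs at 1 FPKM or more in these 6 libraries. Means were below 3 FPKM for 14 members and at 10 FPKM or more for 8. The highest, Cg6g015660, had 34.7, 42.9 and 30.1 FPKM in diseased Jinlan and 60.1, 53.2 and 36.3 FPKM in diseased Jinsha. It was listed at 0 in all 5 Taoxi libraries of the rule. At 2 places before it in ID order, Cg6g015640 had 26.1, 24.0 and 22.2 FPKM in diseased Jinlan and 19.9, 18.5 and 14.8 FPKM in diseased Jinsha, and was also listed at 0 in those Taoxi libraries. By their means the 2 cultivars ranked in opposite order in these near neighbours, although the Cg6g015660 ranges overlapped.

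Cg8g011660 was at 44.9, 47.1 and 40.1 FPKM in diseased Jinlan and at 33.7, 28.2 and 23.8 FPKM in diseased Jinsha. The 5 Taoxi libraries of the rule held it at no more than 0.0626 FPKM, and the library labelled Taoxi control 1 held 33.4 FPKM. Cg8g009170 was steadier, with 14.7, 14.5 and 13.9 FPKM in diseased Jinlan and 16.3, 18.0 and 16.7 FPKM in diseased Jinsha. Cg1g022260 had 10.5, 9.46 and 13.4 FPKM in diseased Jinlan and 13.6, 15.3 and 14.2 FPKM in diseased Jinsha. Both IDs were listed at 0 in those 5 Taoxi libraries, and in both every Jinlan value lay below every Jinsha value.

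In the 5 Taoxi libraries 19 of the 34 Jinlan/Jinsha-only genes were listed at 0 throughout. Values above 0 were found for the other 15, among them 22 of 102 values in diseased Taoxi and 13 of 68 in Taoxi controls 2 and 3. The largest was 0.0981 FPKM, for Cg8g012640 in diseased Taoxi 3, and this ID was above 0 in every Taoxi library. Over the 34 members the FPKM summed to 273, 289 and 260 in diseased Jinlan and to 271, 257 and 225 in diseased Jinsha. The sum was 0.607, 0.364 and 0.254 FPKM in diseased Taoxi and 0.501 and 0.182 FPKM in Taoxi controls 2 and 3.

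The choice of these members did not compare diseased Jinlan with diseased Jinsha, but it required 1 FPKM or more in every library of both. Genes near 0 in either cultivar could therefore not be members, which limits the size of difference a member can show. A gene tested needed 1 FPKM in only 3 of the libraries fitted. The shares of members and of all genes are thus not on like terms. The contrast was tested in the same limma fit of 11 libraries. All 34 members entered the fit. Jinlan was higher for 12 and lower for 9 of the 34 (61.8% passing), where limma called 33.5% of all genes tested higher and 16.0% lower (49.5% in all). Over the 34 members the median log2 fold change was 0.04, and over all genes tested it was 0.11. The Taoxi libraries, near 0 by the rule, add almost no spread to this fit, so its standard errors may be too small for these genes. In the fit of the 2 groups alone 11 were higher and 7 lower (52.9%), against 37.2% and 18.5% of the 16607 genes tested (55.7% in all). Median-ratio scaling in the fit of 11 libraries, which moved the median of all genes to 0.0034, gave 9 higher and 10 lower. That was 55.9% of members against 44.0% of all genes, with the same limits on the standard errors and on the comparison of shares. The members' share lay above that of all genes in the first fit and below it in the second. Differences of at least 2-fold on this scale were found in 2 of the 34, both passing, and 5.16% of all genes tested passed with a difference of that size.

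Both of those were higher in Jinlan. Cg7g019070 had 5.17, 5.96 and 4.49 FPKM in diseased Jinlan (5.21 ± 0.733, SD, n = 3) and 1.19, 1.42 and 1.58 FPKM in diseased Jinsha (1.40 ± 0.196, SD, n = 3). The difference was 1.37 ± 0.11 log2 units (SE; adjusted p 5.33e-06 by limma, and 3.95e-05 with the 2 groups alone). Cg8g012640 had 3.38, 4.29 and 3.91 FPKM in diseased Jinlan and 1.94, 1.01 and 1.003 FPKM in diseased Jinsha, a difference of 1.09 ± 0.15 log2 units (SE; adjusted p 0.000148 by limma, and 0.000725 with the 2 groups alone). Its lowest Jinsha value lay just inside the threshold of 1 FPKM. In both IDs the cultivars did not overlap.

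The largest differences in the other direction were smaller. Cg8g021110 was at 2.04, 2.04 and 2.17 FPKM in diseased Jinlan and at 4.32, 4.49 and 2.90 FPKM in diseased Jinsha, a difference of -0.65 ± 0.12 log2 units (SE; adjusted p 0.00144 by limma, and 0.00408 with the 2 groups alone). CgUng003120 was at 1.79, 1.31 and 1.09 FPKM in diseased Jinlan and at 3.24, 3.03 and 1.82 FPKM in diseased Jinsha, a difference of -0.61 ± 0.16 log2 units (SE; adjusted p 0.00771 by limma, and 0.0179 with the 2 groups alone). Neither ID had overlapping groups. With all 12 libraries 0 of the 34 passed (limma), against 24.9% of all genes, and 3 were at an unadjusted p below 0.05; Taoxi control 1, which that fit adds to the Taoxi controls, held these genes. The smallest adjusted p among the 4 IDs just named was then 0.0601 (limma), for Cg8g012640.

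At these thresholds, and with Taoxi control 1 left out, such differences were found between Taoxi and the other cultivars only. Of the other splits, 0 of the 30123 Cg IDs were low in Jinlan alone, 0 in Jinsha alone, 0 in Jinlan and Taoxi with Jinsha expressed, and 0 in Jinsha and Taoxi with Jinlan expressed. Among the 2740 NewGene IDs of the table, which the rule leaves out, 16 (0.584%) showed the Taoxi-only pattern and 15 (0.547%) the Jinlan/Jinsha-only pattern.

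The library labelled Taoxi control 1 was not used to choose either set. Jinlan/Jinsha-only genes were detected in it: all 34 were higher there than in any of the other 5 Taoxi libraries, at 0.806 to 33.4 FPKM with a median of 4.78 FPKM, and 32 were at 1 FPKM or more. The ratio to the mean of diseased Jinlan had a median of 0.798 (quartiles 0.681 and 1.02), and the ratio to the mean of diseased Jinsha 0.916 (quartiles 0.694 and 1.16). For 21 of the 34 the value lay within the range of the 6 Jinlan and Jinsha libraries, for 11 below it and for 2 above it. The lowest ratio to Jinlan was that of Cg6g012590, at 5.32 FPKM in Taoxi control 1 against 8.73, 11.5 and 9.45 FPKM in diseased Jinlan (0.537 times). The highest was that of Cg1g009550, at 1.84 FPKM against 1.32, 1.40 and 1.61 FPKM (1.27 times). On the log2(FPKM + 1) scale the library was nearer to the Jinlan mean for 19 members and nearer to the Jinsha mean for 15. Among the 21 members that passed between these cultivars in the fit of 11 libraries, it was nearer to Jinlan for 12 and to Jinsha for 9. For Cg7g019070, the member with the largest difference, Taoxi control 1 held 5.09 FPKM, near the Jinlan mean of 5.21 FPKM. For Cg6g012590, also higher in Jinlan, its 5.32 FPKM was near the Jinsha mean of 5.07 FPKM.

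Taoxi-only genes were detected in this library too, below their level in the other Taoxi fruit. They stood at 0.0683 to 4.50 FPKM with a median of 0.665 FPKM, and 11 of 39 were at 1 FPKM or more. Relative to the mean of Taoxi controls 2 and 3, the median was 0.140 times (quartiles 0.105 and 0.153), while control 2 stood at a median of 0.969 times control 3 (quartiles 0.844 and 1.19). Across members the log2 of the first ratio had an SD of 0.53 and that of the second 0.44. The value was below the lowest of the other 5 Taoxi libraries for 38 of 39 members, with Cg6g009460 (1.63 FPKM) as the exception. It was above the highest Jinlan or Jinsha value for 38 of 39, with Cg6g000800 (0.0683 FPKM) as the exception. CgUng019770 had the lowest ratio, at 0.624 FPKM in Taoxi control 1 against 14.2 and 13.8 FPKM in Taoxi controls 2 and 3 (0.0445 times). Cg4g016100 had the highest, at 0.615 FPKM against 3.96 and 1.33 FPKM (0.233 times). Summed over the 39 members this library held 36.1 FPKM, and over the 34 Jinlan/Jinsha-only genes 215 FPKM. What placed the library between the cultivars was not tested.

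**Figure D3:**
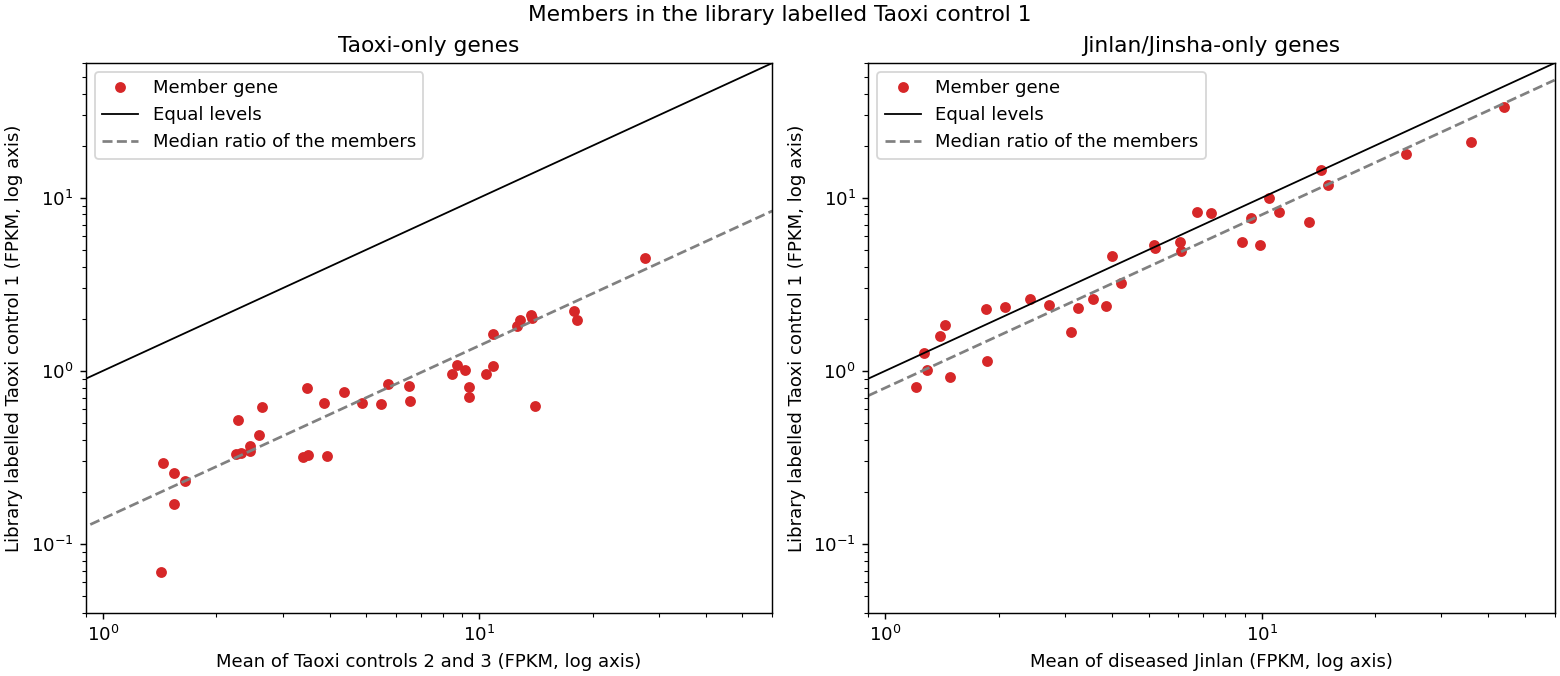
FPKM in the library labelled Taoxi control 1 (vertical, log axis) against the mean of Taoxi controls 2 and 3 for the 39 Taoxi-only genes (left) and against the diseased Jinlan mean for the 34 Jinlan/Jinsha-only genes (right), with 1 point per gene. The dashed lines mark the median ratios of 0.140 and 0.798, and the solid lines mark equal levels.

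In ID order the Taoxi-only genes were spread over all 10 ID series of the table. Series Cg1 held Cg1g018420, Cg1g018430 and Cg1g021690. Series Cg2 held Cg2g009220, Cg2g013590, Cg2g013910, Cg2g015780, Cg2g024260 and Cg2g025550. In Cg3 they were Cg3g005480, Cg3g008900, Cg3g008910 and Cg3g009180, and in Cg4 they were Cg4g005260, Cg4g010850, Cg4g010860, Cg4g016100 and Cg4g016300. In Cg5 they were Cg5g029660, Cg5g030820, Cg5g042450 and Cg5g042460, and in Cg6 they were Cg6g000800 and Cg6g009460. Series Cg7 held Cg7g003210, Cg7g003220, Cg7g003780 and Cg7g010490, and series Cg8 held Cg8g007510 and Cg8g014160. The last were Cg9g006480, Cg9g012740, Cg9g016730, Cg9g019770 and Cg9g028510 in Cg9 and CgUng010700, CgUng013550, CgUng013600 and CgUng019770 in CgUn. By series they were 5 of the 2500 IDs in Cg4, where the share was highest, and 2 of the 2587 IDs in Cg6, where it was lowest. Relative to IDs at 1 FPKM or more in the 5 Taoxi libraries, the share was 1.25% in CgUn, where 320 IDs reached that level, and 0.152% to 0.415% in the other 9 series.

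The Jinlan/Jinsha-only genes were also found in every series, with the highest counts in Cg6 and Cg7. Series Cg1 had Cg1g009550, Cg1g020530 and Cg1g022260, and series Cg2 had Cg2g002880, Cg2g016860, Cg2g016960, Cg2g016980 and Cg2g016990. Cg3g000570 and Cg3g009270 stood in Cg3, Cg4g012070 in Cg4, and Cg5g001900 and Cg5g004100 in Cg5. The 7 in Cg6 were Cg6g012590, Cg6g015210, Cg6g015640, Cg6g015660, Cg6g015930, Cg6g023680 and Cg6g023700. The 6 in Cg7 were Cg7g007110, Cg7g007440, Cg7g019070, Cg7g019830, Cg7g022420 and Cg7g022430. Series Cg8 had Cg8g009170, Cg8g011660, Cg8g012640 and Cg8g021110, Cg9 had Cg9g004790 and Cg9g019300, and CgUn had CgUng003120 and CgUng006690. They were 0.271% of the 2587 Cg6 IDs and 0.249% of the 2406 Cg7 IDs, against 0.0400% to 0.160% in the other 8 series. Relative to IDs that reached 1 FPKM in each of the 6 Jinlan and Jinsha libraries, CgUn was highest at 0.583% of 343 IDs, followed by Cg6 at 0.522% and Cg7 at 0.449%.

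**Figure D4:**
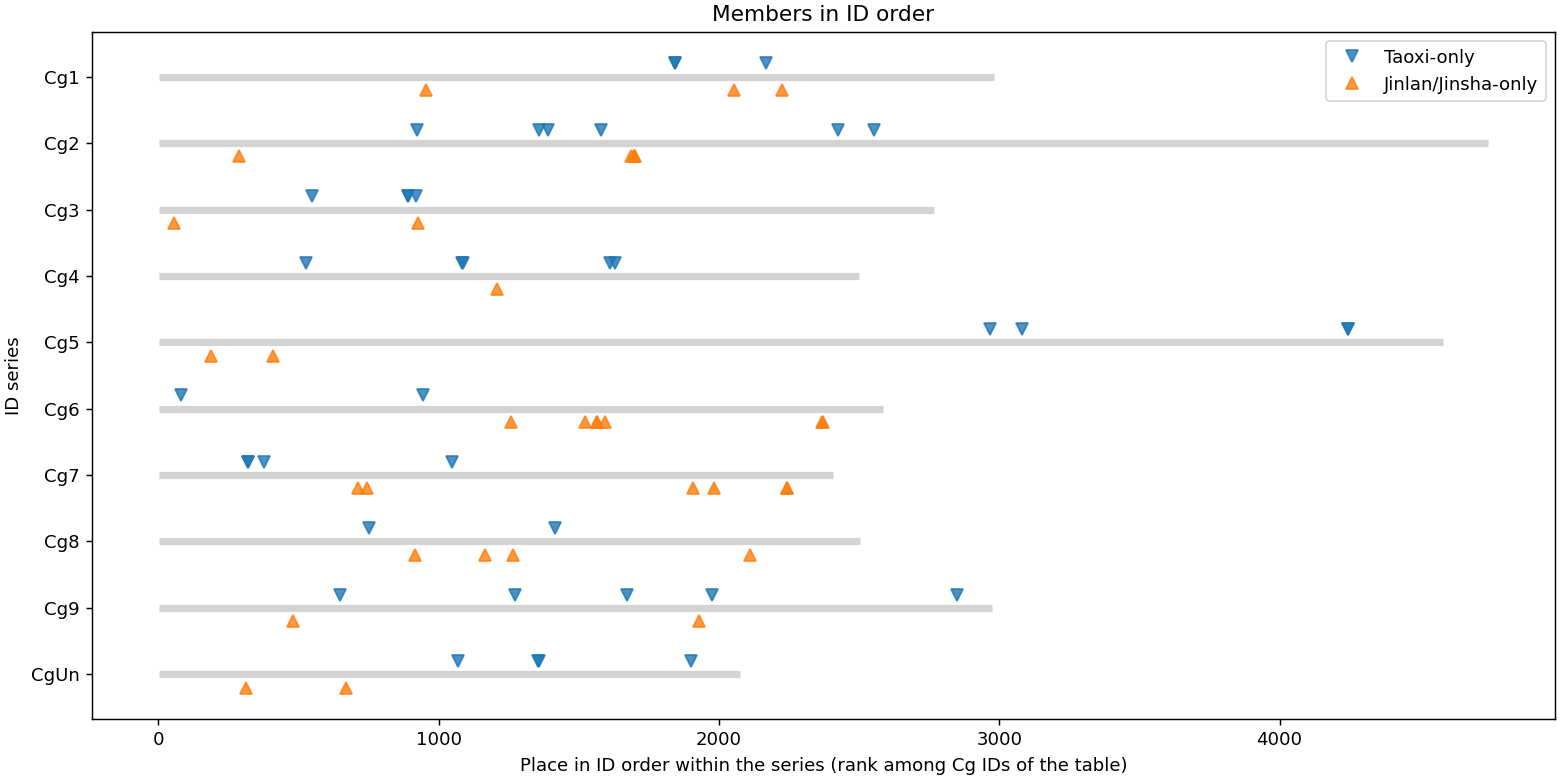
Place of each member in ID order within its series, ranked over all Cg IDs of the table, with Taoxi-only genes above each grey line and Jinlan/Jinsha-only genes below it. Grey lines show the number of IDs in a series, darker marks are members that nearly coincide, and both sets occur in all 10 series.

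Members often came in neighbouring pairs. With 1 Taoxi-only gene per 772 IDs and 1 Jinlan/Jinsha-only gene per 886 IDs in the table, 12 of 39 and 9 of 34 had another member of their own set within 5 places in ID order. Places are counted over the IDs listed, and distances in bases are not known. Among the Taoxi-only genes 5 pairs were consecutive IDs: Cg1g018420 with Cg1g018430, Cg3g008900 with Cg3g008910, Cg4g010850 with Cg4g010860, Cg5g042450 with Cg5g042460, and Cg7g003210 with Cg7g003220. CgUng013550 and CgUng013600 were 5 places apart. Neighbouring copies of similar sequence can share reads, which the table does not show, so the split of signal within a pair is uncertain.

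Levels within a pair could differ. Cg3g008900 had 8.33, 11.997 and 10.5 FPKM in diseased Taoxi and 12.04 and 13.1 FPKM in Taoxi controls 2 and 3, while Cg3g008910 had 1.69, 2.89 and 2.89 FPKM in diseased Taoxi and 2.48 and 2.71 FPKM in those controls. Cg5g042450 had 11.3, 13.4 and 13.1 FPKM in diseased Taoxi and 12.2 and 9.45 FPKM in the controls, and Cg5g042460 had 8.57, 9.06 and 11.1 FPKM and 7.49 and 5.56 FPKM. The first pair differed several-fold and the second far less. The ID that follows the Cg5 pair, Cg5g042470, missed the rule by a single value of 0.118 FPKM in diseased Jinsha 1. It had 27.6, 25.5 and 28.2 FPKM in diseased Taoxi and 25.5 and 26.2 FPKM in Taoxi controls 2 and 3, and was listed at 0 in the other 5 Jinlan and Jinsha libraries.

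The only run of 3 members lay in Cg2, where Cg2g016960, Cg2g016980 and Cg2g016990 filled 3 of 4 consecutive places. Cg2g016960 had 5.05, 5.01 and 5.43 FPKM in diseased Jinlan and 6.89, 6.84 and 6.84 FPKM in diseased Jinsha. Cg2g016980 had 6.61, 5.78 and 5.79 FPKM in diseased Jinlan and 5.68, 5.66 and 6.12 FPKM in diseased Jinsha. Cg2g016990 had 3.93, 5.26 and 3.45 FPKM in diseased Jinlan and 4.12, 4.26 and 3.78 FPKM in diseased Jinsha. Only Cg2g016960 passed between the cultivars (log2 fold change -0.35 ± 0.08, SE, limma adjusted p = 0.00338). All 3 were listed at 0 in the 5 Taoxi libraries of the rule, and the ID between them, Cg2g016970, was listed at 0 in all 12 libraries. A further member, Cg2g016860, stood 10 places before the run.

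Cg6g023680 and Cg6g023700 enclosed an ID with almost the same pattern. Cg6g023680 had 13.3, 13.4 and 13.4 FPKM in diseased Jinlan and 10.4, 10.9 and 9.97 FPKM in diseased Jinsha, and Cg6g023700 had 14.6, 14.9 and 15.6 FPKM and 10.9, 8.79 and 11.6 FPKM. Between them Cg6g023690 had 14.1, 12.4 and 13.0 FPKM in diseased Jinlan and 11.05, 7.03 and 10.3 FPKM in diseased Jinsha, and was left out of the set by 0.167 FPKM in diseased Taoxi 1. The next ID, Cg6g023710, was higher in all 6 Jinlan and Jinsha libraries (26.1 to 47.9 FPKM) than in diseased Taoxi (2.58 to 10.1 FPKM) and Taoxi controls 2 and 3 (0.0199 and 0.308 FPKM). Cg7g022420 and Cg7g022430 were the remaining close pair. They had means of 6.70 and 2.09 FPKM over the Jinlan and Jinsha libraries.

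The nearest members of opposite sets, Cg3g009180 (Taoxi-only) and Cg3g009270 (Jinlan/Jinsha-only), were 9 places apart, and Cg3g008910, the next nearest, was 36 places from the same ID. Immediately beside the Taoxi-only genes, 15 of 78 neighbouring IDs (19.2%) were at 1 FPKM or more in all 11 libraries of the rule and 32 (41.0%) were at 0.1 FPKM or less in all 11. Beside the Jinlan/Jinsha-only genes these were 19 (29.2%) and 20 (30.8%) of 65. Of all Cg IDs 44.6% and 30.8% met these conditions. The members themselves count among these neighbours where they are consecutive, 10 times in the first set and 4 times in the second.

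Few other IDs near the members differed between the cultivars by a wide margin in the same direction. Within 5 places of a Taoxi-only gene, 6 of 334 other IDs (1.80%) were lower in Jinlan and Jinsha than in Taoxi by at least 2 units of mean log2(FPKM + 1), against 1.06% of all other Cg IDs. Within 5 places of a Jinlan/Jinsha-only gene, 9 of 292 (3.08%) were higher in Jinlan and Jinsha by as much, against 1.39% of all other Cg IDs. The 13 Taoxi-only and 14 Jinlan/Jinsha-only genes with means below 3 FPKM cannot reach this margin themselves. Near IDs with a like pattern at such low levels are therefore not counted. One of the 6, Cg4g005230, lay 3 places from Cg4g005260. It had 27.4, 29.9 and 26.0 FPKM in diseased Taoxi and 20.0 and 23.5 FPKM in Taoxi controls 2 and 3, and missed the rule by 0.651 FPKM in diseased Jinsha 2. One of the 9, Cg8g011670, follows Cg8g011660 directly. It had 27.9, 28.3 and 26.5 FPKM in diseased Jinlan, 22.6, 19.8 and 17.2 FPKM in diseased Jinsha, and at most 0.444 FPKM in the 5 Taoxi libraries.

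Around the thresholds the sets shaded into other genes. For the Taoxi-only rule the lowest Taoxi value was 1.18 FPKM for Cg6g000800 and 1.19 FPKM for Cg8g014160 just inside, and 0.997 FPKM for Cg4g020110 and 0.945 FPKM for Cg2g009260 just outside. On its low side Cg6g009460 (0.0785 FPKM) and Cg6g000800 (0.0727 FPKM) were the last inside, and Cg2g029180 (0.102 FPKM) and Cg5g029290 (0.104 FPKM) the first outside. For the Jinlan/Jinsha-only rule, Cg8g012640 (1.003 FPKM) and CgUng003120 (1.09 FPKM) were just inside the upper threshold and Cg7g007130 (0.955 FPKM) and Cg4g010340 (0.928 FPKM) just outside. Cg8g012640 (0.0981 FPKM) and CgUng006690 (0.0962 FPKM) were the last inside the lower threshold, and Cg9g004670 (0.109 FPKM) and Cg2g020900 (0.129 FPKM) the first outside.

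Replicates of a group spread more for the members than for genes expressed in the same libraries. In diseased Taoxi the coefficient of variation had a median of 16.4% over the Taoxi-only genes and 8.95% over the 14106 IDs at 1 FPKM or more in the 5 Taoxi libraries. For the Jinlan/Jinsha-only genes it was 13.3% in diseased Jinlan and 14.6% in diseased Jinsha, against 6.15% and 6.93% over the 14587 IDs expressed there. The members were also lower in level than those IDs, and the part of level in this spread was not tested. From the lowest to the highest of its expressing libraries, the value differed by less than 2-fold for 29 of 39 Taoxi-only genes and for 24 of 34 Jinlan/Jinsha-only genes. Cg6g009460 had the widest ratio in the first set (10.05-fold) and Cg7g019070 in the second (4.99-fold).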

How the data were processed

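RNA-seq of pomelo fruit was deposited by the authors as a table of FPKM values. Per the labels' protocols, libraries were made from RNeasy-purified RNA with a SMARTer mRNA-seq kit. The aligner, the counting tool and the genome build were not given in the sources used here. Columns were matched to the 12 samples by title, and 6 columns that match none of them were not used. The depth behind a value is unknown: at most 1.81% of low IDs fell in the most common bin of the log2 ratio between replicates, so whole reads were not recovered.

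The membership rule was applied to the FPKM as deposited. Members, lists and tests were chosen with earlier results of these data known. Genes that reached 1 FPKM in 3 or more of 11 libraries were fitted as log2(FPKM + 1) with limma 3.58.1 (R 4.3.3; 1 mean per group, mean-variance trend, two-sided, Benjamini-Hochberg), and the fit was tested on simulated data. Fold changes on this scale understate those of low genes. No 2 members had identical values in all libraries. Values in each expressing library of the rule are given for the 5 highest members of each set and the run of 3. The same holds for the 2 largest passing rises and falls per contrast. For the extremes in Taoxi control 1, the values behind the ratio are given. Pairs and other near IDs were named after their values had been seen. Alternatives covered thresholds, scaling, pseudocount, filter, libraries fitted, a replicate block and leaving out each library.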

Additional observations from a re-analysis of the deposited data

Results flagged for a closer look

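The library labelled Taoxi control 1 entered neither the choice of members nor the fit of 11 libraries. All 34 Jinlan/Jinsha-only genes were higher in it than in any of the other 5 Taoxi libraries, and the median ratio to the mean of diseased Jinlan was 0.798.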

How the results depend on the processing

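The size of the sets followed the thresholds. There were 61 Taoxi-only genes with a low threshold of 0.2 FPKM, 70 with a high threshold of 0.5 FPKM and 20 with one of 3 FPKM. There were 19 Jinlan/Jinsha-only genes with a low threshold of 0, 55 with a high threshold of 0.5 FPKM and 17 with one of 3 FPKM. Adding Taoxi control 1 to the Taoxi libraries left 11 and 0. Leaving out 1 library at a time gave 39 to 43 and 34 to 37. That removes a condition from the rule, so the counts could not fall.

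Of the Taoxi-only genes 9 passed between diseased and control Taoxi (limma), 3 with a pseudocount of 0.1 (30.6% of all genes passed), 1 with all 12 libraries (7.89% of all genes), and 4 to 13 without 1 library (17.2% to 27.6% of all genes), 4 being the count without Taoxi control 3. Without Taoxi control 2 or 3 the lone control is assumed to vary like the other groups. Of the Jinlan/Jinsha-only genes 21 passed between Jinlan and Jinsha, 12 with a pseudocount of 0.1 (48.1% of all genes), 11 of the 16 left by a filter at 5 FPKM (53.9%), 0 with all 12 libraries (24.9%), and 15 to 18 without 1 library (41.3% to 44.2%). Median-ratio, upper-quartile and quantile scaling gave them a median log2 fold change of -0.07, -0.03 and -0.03, in place of 0.04. The cause of these shifts was not tested. Replicate numbers did not pair the samples (correlations of deviations -0.221 to 0.0238), and with the replicate block 9 and 19 members passed. The 8 IDs named in the 2 contrasts kept their direction under every alternative that could test them, although Cg9g006480 was near 0 with all 12 libraries, at -0.06 in place of -0.64 log2 units. Depth limits what a value listed at 0 can show.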
